A study of Mus musculus with 18 samples.

Results

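The NF-kB subunit and inhibitor genes described here are 10 genes, chosen with earlier results of these data known. They include the 5 subunit genes Nfkb1, Nfkb2, Rel, Rela and Relb, and the inhibitor genes Nfkbia, Nfkbib and Nfkbie. The atypical inhibitor gene Bcl3 and the feedback inhibitor gene Tnfaip3 complete the 10. The 10 genes were found by matching the Ensembl gene IDs of the count table to GENCODE M21 symbols. This gave 1 row for each of the 10 among 48794 rows, and all 10 were among the 13177 genes tested. RNA sequencing was done on macrophages grown from bone marrow of male C57BL/6 mice, matured for 7 days with 50 ng/ml M-CSF. All cells then received 10 ng/ml M-CSF for 24 h, alone in Control, with IL-4 and IL-13 in IL4_IL13, and with IL-4, IL-13 and TNFa in IL4_IL13_TNFa (each cytokine at 10 ng/ml). There were 6 libraries per group, numbered 1 to 6. No group received TNFa without IL-4 and IL-13, so the effect of TNFa was measured only in cells that had both type 2 cytokines.

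NF-kB is a family of dimeric transcription factors that carry signals from receptors such as those for TNF and from Toll-like receptors. In resting cells the dimers are held in the cytoplasm by IkB proteins, and the IkB kinase complex (IKK) releases them by marking the IkB proteins for degradation. The canonical arm acts mainly through dimers with RelA or c-Rel, while the non-canonical arm processes the Nfkb2 precursor and acts through RelB. Several members of the family are themselves NF-kB target genes, which gives the pathway feedback loops of both signs, and in macrophages the pathway drives inflammatory gene expression.

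The libraries held 14793404 to 20056125 counts, and a member had between 173 and 11436 counts in a library. Nothing in the labels ties the 6 libraries of a group to different mice or dishes; the p-values therefore describe library-to-library spread, part of which may be technical. Levels are given in CPM, counts scaled to a common library size after TMM scaling. Of 10 macrophage markers, all lay above 1 CPM in Control and IL4_IL13 and 9 in IL4_IL13_TNFa, where Fcgr1 lay at 0.999 CPM; their sum was 14700 to 25740, 8807 to 10590 and 9033 to 9822 CPM in the 3 groups. Neutrophil, T and NK cell, and mast cell and basophil markers each summed to at most 3.03 CPM in every library, and B cell markers to at most 4.52 CPM. Of 6 dendritic cell markers, Zbtb46 lay at 33.9 CPM in IL4_IL13_TNFa and the others under 1 CPM. The 8 stromal markers summed to 21.6 to 686 CPM in Control, 63.2 to 596.8 CPM in IL4_IL13 and 66.1 to 399.8 CPM in IL4_IL13_TNFa, and the 4 endothelial markers to 22.9 CPM at most. Control replicate 1 stood apart: it had the lowest level of all 10 genes among the controls, and the lowest stromal sum. The overlap of IL4_IL13 with Control, and the differences of members that overlapped through that library, are given below with and without it.

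The promoters are shown first because several of these genes are textbook targets of the factors that they encode. RefSeq promoters (GRCm38.p6, 250 bases before to 50 after the start site, on the gene's strand) were matched for 8 of the 10 genes, and none was matched for Nfkb1 and Relb. They were searched on both strands for the kB consensus, a 10-base pattern that begins with GGG and ends with CC and at which NF-kB dimers are known to bind. Capitals mark every base covered by a match, and positions count from the start site at 1. In the first listed Nfkb2 promoter, at chr19:46304487-46304786 on the plus strand, 1 stretch from -39 to -29 matched on both strands and another from -11 to -2. The Nfkbia promoter, at chr12:55492598-55492897 on the minus strand, held 1 match from -29 to -20, and the Rela promoter, at chr19:5637291-5637590 on the plus strand, held none. These 3 are printed whole, as a strongly TNFa-raised subunit gene, the best known inhibitor gene and a subunit gene with little change. They were picked with their changes known, and Rel, whose promoter held matches, rose less with added TNFa (1.40-fold) than Rela (1.49-fold).
Nfkb2: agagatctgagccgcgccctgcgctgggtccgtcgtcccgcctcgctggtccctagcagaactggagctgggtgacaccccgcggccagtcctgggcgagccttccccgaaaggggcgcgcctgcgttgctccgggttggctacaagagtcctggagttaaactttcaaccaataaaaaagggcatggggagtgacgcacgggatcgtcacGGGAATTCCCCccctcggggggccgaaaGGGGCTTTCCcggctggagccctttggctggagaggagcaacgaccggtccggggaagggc
Nfkbia: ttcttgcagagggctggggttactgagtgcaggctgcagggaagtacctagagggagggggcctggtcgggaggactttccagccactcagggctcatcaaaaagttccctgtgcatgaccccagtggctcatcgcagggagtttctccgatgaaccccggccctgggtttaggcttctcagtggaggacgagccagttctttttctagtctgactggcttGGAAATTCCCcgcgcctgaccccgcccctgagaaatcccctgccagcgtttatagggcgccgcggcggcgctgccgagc
Rela: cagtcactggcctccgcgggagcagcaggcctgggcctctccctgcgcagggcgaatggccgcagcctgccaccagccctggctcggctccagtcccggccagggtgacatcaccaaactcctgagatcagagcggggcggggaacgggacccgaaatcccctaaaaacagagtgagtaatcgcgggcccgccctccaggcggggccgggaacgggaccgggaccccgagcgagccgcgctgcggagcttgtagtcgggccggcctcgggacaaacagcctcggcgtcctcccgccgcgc

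For 4 other genes the stretch around the match nearest to the start site is shown, to let the matches be compared. They lay in Rel from -92 to -82 (chr11:23771037-23771076, minus strand), in Nfkbie from -106 to -97 (chr17:45555579-45555618, plus strand), in Bcl3 from 3 to 12 (chr7:19822729-19822768, minus strand) and in Tnfaip3 from -12 to -3 (chr10:19015398-19015437, minus strand).
Rel: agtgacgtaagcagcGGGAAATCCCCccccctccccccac
Nfkbie: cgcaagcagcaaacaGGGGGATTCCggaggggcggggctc
Bcl3: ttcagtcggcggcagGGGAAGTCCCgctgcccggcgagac
Tnfaip3: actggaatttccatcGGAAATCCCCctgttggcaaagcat

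The Tnfaip3 promoter held a further match from -125 to -116, and all 3 listed Nfkb2 promoters held at least 1. In all, 6 of the 8 genes held the consensus (Nfkb2, Rel, Nfkbia, Nfkbie, Bcl3 and Tnfaip3), against 5.14% of 27025 genes and 4.51% of 32851 promoters in the table. A looser pattern, GGGNNNNNCC, was too common to set genes apart, with 7 of the 8 genes holding it, against 53.5% of 27025 genes and 50.8% of all promoters. Nfkbib held neither pattern, but its listed promoter, at chr7:28766595-28766894 on the minus strand, lay inside the GENCODE gene. The 5' end of that gene, at 28767512, was not searched. A match describes these letters only, and binding was not measured.

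Adding TNFa to IL-4 and IL-13 raised all 10 genes, and IL-4 and IL-13 alone lowered 8 of them and raised Nfkb1 and Rel. The largest rise with TNFa was that of Nfkbie, from 21.8 ± 6.27 to 358 ± 9.32 CPM (SD, n = 6), followed by Tnfaip3, from 13.1 ± 2.78 to 168.6 ± 8.46 CPM, and Relb, from 22.2 ± 5.97 to 160.3 ± 6.56 CPM. Rel and Rela rose least, 1.40- and 1.49-fold. These are bulk RNA levels, in which fewer cells of a type and less RNA per cell cannot be told apart.

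**Figure D1:**
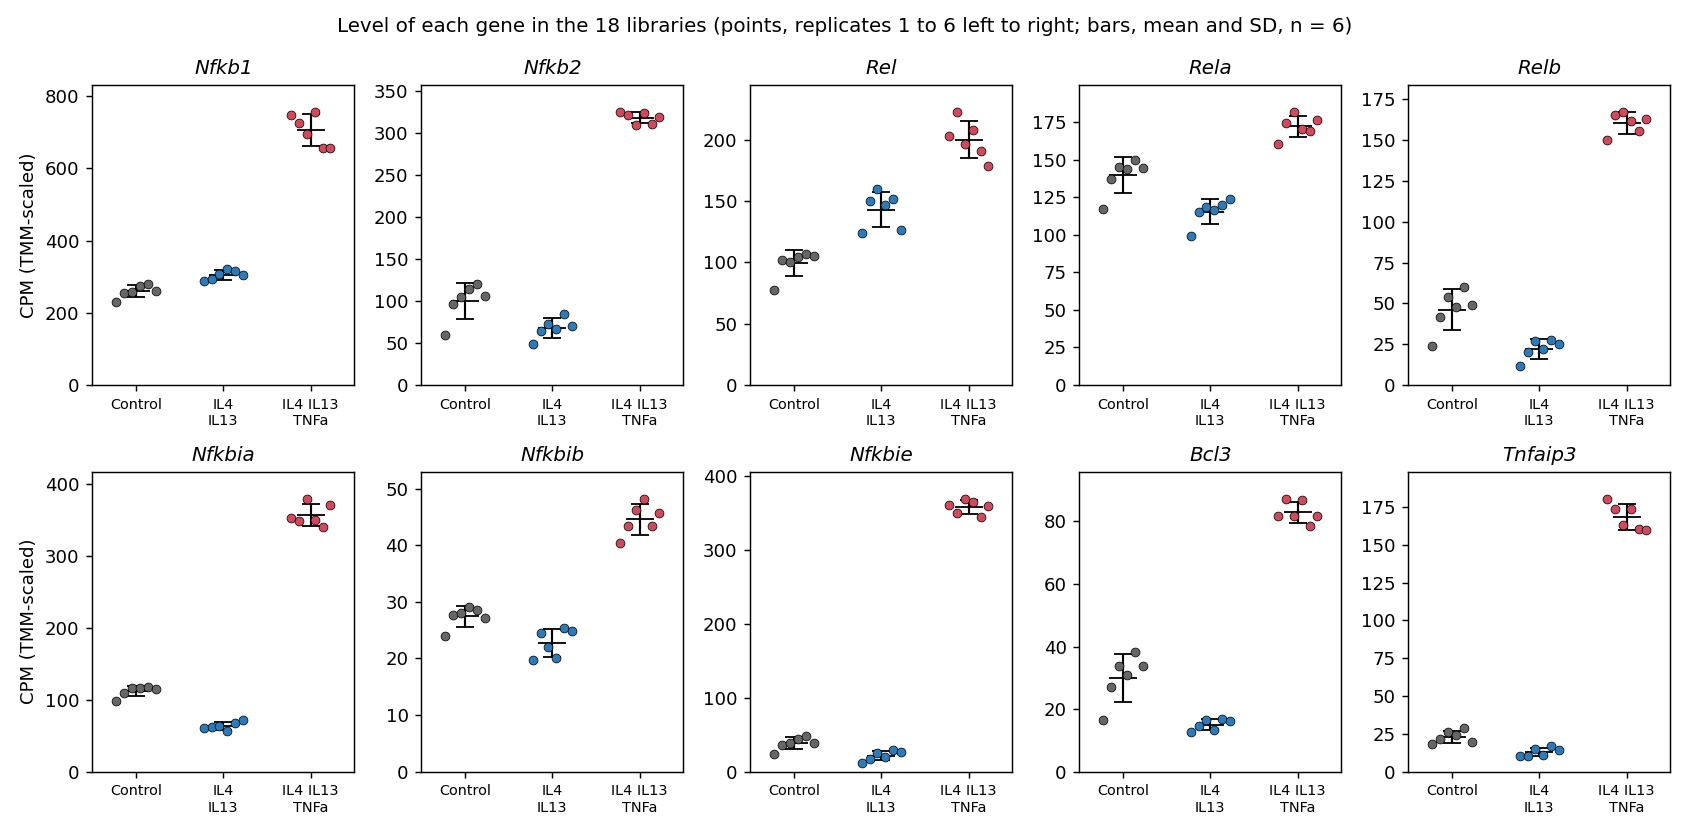
Levels of the 10 genes (y axis, CPM, each panel from 0 with its own range) in the 3 groups (x axis); points are libraries, with replicates 1 to 6 from left to right, and bars are the mean and SD of 6. All 6 IL4_IL13_TNFa libraries lie above all others in each panel, and Control replicate 1 is the lowest control in each.

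Changes are log2 differences from edgeR's quasi-likelihood test on all 13177 genes, adjusted by the Benjamini-Hochberg method and called at 0.05, and the ± after them is an approximate standard error (the size of the difference over the root of the F value). With IL4_IL13 against Control, 8 of 10 members were lower, where 29.7% of all genes tested were lower, and 2 were higher, against 29.3%. Their median log2 difference was -0.69, and that of all genes was -0.00. Taken by replicate number, each member differed in 1 direction in 6 of 6 pairs, for example Relb by -0.965 to -1.117. The share of all genes with 6 of 6 pairs in 1 direction was not counted. As unpaired groups, the libraries did not overlap for 4 members (Nfkb1, Rel, Nfkbia and Tnfaip3), against 26.7% of all genes. For these 4, the 6 of 6 pairs in 1 direction follow from the lack of overlap. Without Control replicate 1, a check chosen after its values were seen, the libraries did not overlap for all 10, against 51.2%.

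With IL4_IL13_TNFa against IL4_IL13, 10 of 10 members were higher and none lower, where 30.3% and 29.3% of all genes were higher and lower. At least 2-fold rises were called for 7 members, against 6.72% of all genes, and the groups did not overlap for all 10, against 44.9%. The members' median was 2.35 and that of all genes 0.00. With IL4_IL13_TNFa against Control, 10 of 10 were again higher (36.4% of all genes were higher and 37.3% lower), 8 of them at least 2-fold (11.5%), with no overlap for all 10 (51.2%). The median was 1.57, and -0.02 over all genes. The comparisons share libraries, so they are not independent. The IL4_IL13 libraries serve the first and second, the IL4_IL13_TNFa libraries the second and last, and the Control libraries the first and last. Scaling by library totals alone shifted the median of all genes by over 0.1, to -0.20 and -0.27 in the TNFa comparisons, where 27.5% and 32.7% of called genes were then higher, in place of 50.9% and 49.4%.

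**Figure D2:**
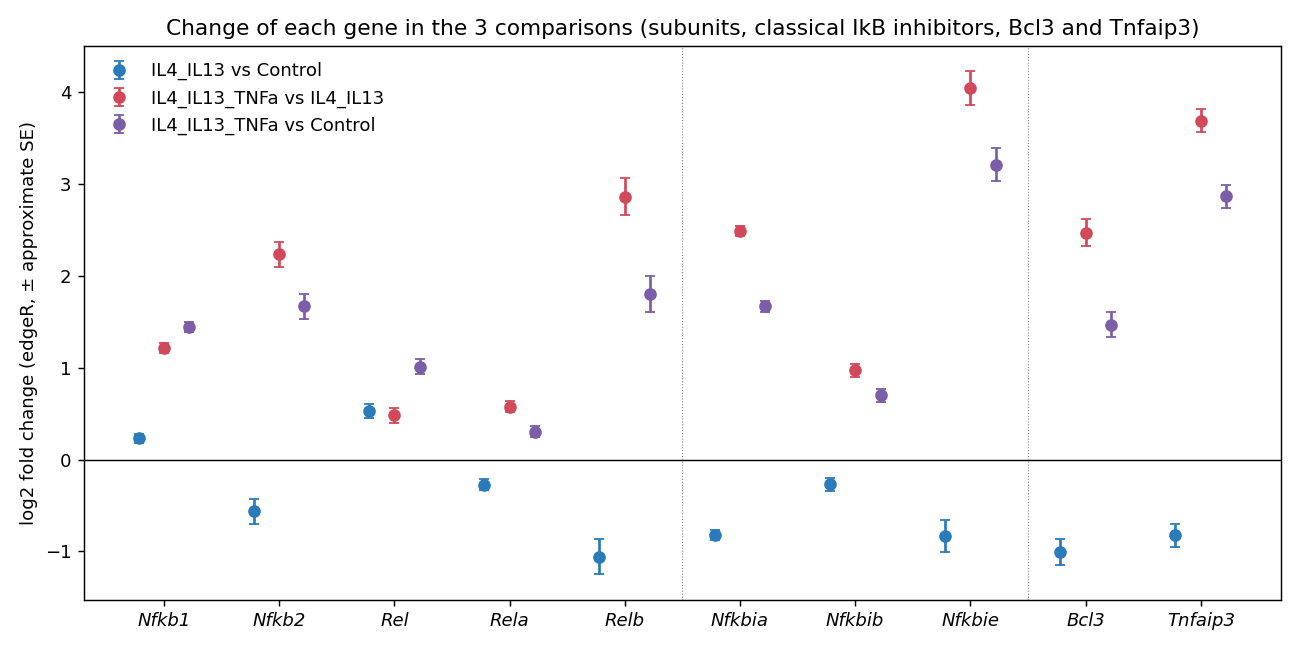
Log2 fold change (y axis, edgeR, ± approximate standard error) of each gene (x axis) in the 3 comparisons (colours); dotted lines separate the 5 subunits, the 3 IkB inhibitors, and Bcl3 with Tnfaip3. With added TNFa the values run from 0.48 for Rel to 4.04 for Nfkbie, and with IL4_IL13 alone Nfkb1 and Rel are above 0.

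Rela, on chromosome 19 from 5637483 to 5648130 (GRCm38), encodes the main activating subunit of the canonical arm. It lay at 117 to 150.1 CPM in Control (median 144), at 99.3 to 123.8 CPM in IL4_IL13 (median 117) and at 160.7 to 181.7 CPM in IL4_IL13_TNFa (median 172.5). It moved little among the groups: it was 1.21-fold lower with IL4_IL13 (log2 difference -0.28 ± 0.06, adjusted p = 0.000742) and rose 1.49-fold with added TNFa (0.58 ± 0.06, adjusted p = 1.18e-07). With library totals alone the latter difference was 0.37 (adjusted p = 3.65e-05). Against Control it was 1.23-fold higher with all cytokines (adjusted p = 0.00017). With scaling by library totals alone this difference was 0.05 and not called (adjusted p = 0.448). IL4_IL13 and Control overlapped through Control replicate 1, and without it their log2 difference was -0.32.

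Rel, on chromosome 11 from 23736847 to 23770970, encodes c-Rel, an activating subunit known from lymphocytes and macrophages. Its Control libraries lay at 77.8 to 106.6 CPM (median 103), those of IL4_IL13 at 124 to 159.4 CPM (median 148.5) and those of IL4_IL13_TNFa at 178 to 222 CPM (median 199.8). The 3 groups did not overlap, and Rel rose at both steps: 1.44-fold with IL4_IL13 (log2 difference 0.53 ± 0.08, adjusted p = 1.83e-05) and 1.40-fold more with TNFa (0.48 ± 0.08, adjusted p = 3.5e-05). Without the libraries numbered 1 the steps were 0.51 and 0.44. With scaling by library totals alone they were 0.48 and 0.28, both still called (adjusted p = 4.06e-05 and 0.00474).

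Nfkb1, on chromosome 3 from 135584655 to 135691547, encodes the p105 precursor of the p50 subunit, and the precursor also acts as an inhibitor. It had the highest CPM of the 10, with 230.6 to 280.7 CPM in Control (median 259), 288 to 321 CPM in IL4_IL13 (median 305.5) and 656 to 755.5 CPM in IL4_IL13_TNFa (median 709.8). As for Rel, the groups stood in 1 order without overlap. IL4_IL13 raised it 1.17-fold (log2 difference 0.23 ± 0.05, adjusted p = 0.00108) and added TNFa 2.31-fold (1.21 ± 0.05, adjusted p = 5.39e-13).

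Nfkb2, on chromosome 19 from 46304320 to 46312385, encodes the p100 precursor of p52, the partner of RelB in the non-canonical arm. It lay at 59.8 to 120.4 CPM in Control (median 105), at 48.3 to 84.6 CPM in IL4_IL13 (median 68.4) and at 309 to 324.5 CPM in IL4_IL13_TNFa (median 320.2). The first 2 groups overlapped through Control replicate 1, while the TNFa libraries were 4.70-fold above IL4_IL13 (log2 difference 2.23 ± 0.14, adjusted p = 1.06e-10). IL4_IL13 lowered it 1.48-fold (-0.56 ± 0.14, adjusted p = 0.0017), and the difference was -0.67 without Control replicate 1. Its 3' end shares 299 exonic bases with Psd on the other strand, a gene with a mean of at most 0.908 CPM in any group. Another 531 are shared with AC114539.1, which has no row in the count table, so its level could not be given.

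Relb, on chromosome 7 from 19606217 to 19629438, encodes the subunit of the non-canonical arm. It lay at 23.7 to 59.7 CPM in Control (median 48.3), at 11.4 to 27.5 CPM in IL4_IL13 (median 23.6) and at 149.8 to 167 CPM in IL4_IL13_TNFa (median 162). Of the 5 subunits it had the largest difference in both directions, 2.08-fold lower with IL4_IL13 (log2 difference -1.06 ± 0.20, adjusted p = 0.000167) and 7.25-fold higher with added TNFa (2.86 ± 0.20, adjusted p = 6.63e-10). The library numbered 1 was the lowest in each of the 3 groups. Without Control replicate 1 the fall was -1.19, and without IL4_IL13 replicate 1 it was -0.92.

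With added TNFa the 3 classical inhibitors rose by 1.96- to 16.5-fold. Nfkbia, on chromosome 12 from 55489410 to 55492647, encodes IkB-alpha, which is degraded within minutes of a signal and made anew as an NF-kB target. It lay at 98.7 to 118 CPM in Control (median 115.8), at 57.2 to 71.6 CPM in IL4_IL13 (median 62.6) and at 340.5 to 378.8 CPM in IL4_IL13_TNFa (median 350.6). All 3 groups were separate. It was 1.77-fold lower with IL4_IL13 (log2 difference -0.82 ± 0.06, adjusted p = 5.88e-10) and 5.60-fold higher with added TNFa (2.49 ± 0.06, adjusted p = 1.26e-16), the smallest adjusted p of the 10 in both comparisons.

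Nfkbib, on chromosome 7 from 28758251 to 28767512, encodes IkB-beta, an inhibitor of slower turnover. The libraries lay at 24.0 to 29.0 CPM in Control (median 27.9), at 19.8 to 25.3 CPM in IL4_IL13 (median 23.3) and at 40.4 to 48.2 CPM in IL4_IL13_TNFa (median 44.5). Its changes were the smallest of the 3 inhibitors. It was 1.21-fold lower with IL4_IL13 (log2 difference -0.27 ± 0.07, adjusted p = 0.00303). With added TNFa it was 1.96-fold higher (0.97 ± 0.07, adjusted p = 6.54e-10). IL4_IL13 and Control overlapped through Control replicate 1, and without it their log2 difference was -0.30. The gene shares 42 exonic bases with Sirt2 on the other strand, whose mean was 136.6, 98.6 and 91.0 CPM in Control, IL4_IL13 and IL4_IL13_TNFa. The strand setting of the counting is not given in the sources used here.

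Nfkbie, on chromosome 17 from 45555703 to 45563169, encodes IkB-epsilon, an inhibitor known for delayed feedback on RelA and c-Rel dimers. Levels were 24.1 to 48.2 CPM in Control (median 39.5), 12.3 to 28.9 CPM in IL4_IL13 (median 22.4) and 344 to 369 CPM in IL4_IL13_TNFa (median 360.0). The first 2 groups overlapped through Control replicate 1, and the TNFa libraries lay far above both. Its rise with added TNFa was 16.5-fold (log2 difference 4.04 ± 0.19, adjusted p = 1.72e-12), and 0.744% of all genes tested had a higher log2 value. IL4_IL13 alone lowered it 1.78-fold (-0.83 ± 0.17, adjusted p = 0.00049), and the difference was -0.94 without Control replicate 1.

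Bcl3, on chromosome 7 from 19808462 to 19822770, encodes a nuclear IkB-like protein that binds dimers of p50 or p52. Its level was 16.5 to 38.3 CPM in Control (median 32.2), 12.6 to 16.9 CPM in IL4_IL13 (median 15.3) and 78.6 to 87.1 CPM in IL4_IL13_TNFa (median 81.7). Control replicate 1 alone reached into the IL4_IL13 range, and without it the log2 difference of these 2 groups was -1.125. The fall with IL4_IL13 was 2.00-fold (log2 difference -1.002 ± 0.14, adjusted p = 8.83e-06) and the rise with added TNFa 5.54-fold (2.47 ± 0.14, adjusted p = 3.72e-11).

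Tnfaip3, on chromosome 10 from 19000910 to 19015657, encodes a ubiquitin-editing enzyme that shuts off signalling upstream of IKK. It lay at 18.6 to 28.7 CPM in Control (median 23.0), at 10.3 to 17.1 CPM in IL4_IL13 (median 12.7) and at 160.1 to 180.3 CPM in IL4_IL13_TNFa (median 168.4). The 3 groups were separate. It was 1.77-fold lower with IL4_IL13 (log2 difference -0.83 ± 0.12, adjusted p = 1.52e-05) and 12.9-fold higher with added TNFa (3.69 ± 0.13, adjusted p = 2.81e-14).

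Set against Control, the 3 cytokines together left every member above its level in cells with M-CSF alone. Nfkbie was 9.25-fold higher (log2 difference 3.21 ± 0.18, adjusted p = 9.9e-12) and Tnfaip3 7.28-fold (2.86 ± 0.12, adjusted p = 1.55e-13). Relb, Nfkb2 and Nfkbia followed with 3.49-, 3.18- and 3.17-fold, and Bcl3 and Nfkb1 with 2.77- and 2.71-fold. Rel was 2.01-fold higher (log2 difference 1.01 ± 0.08), and the difference was 0.95 without the libraries numbered 1, so that 7 rather than 8 members were then called at 2-fold. Nfkbib was 1.62-fold higher (log2 difference 0.70 ± 0.07), and the difference was 0.45 with library totals alone. In each of the 10 genes the value was higher in 6 of 6 replicate numbers, both here and with added TNFa. Groups that do not overlap give this under any pairing, so it adds nothing to the lack of overlap given above. The share of all genes with 6 of 6 higher was not counted.

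Levels can be compared between genes only per length, here as CPM per kb of the gene's merged exons. In Control, Nfkbia stood highest at 69.8 ± 4.58 CPM per kb (SD, n = 6), then Rela at 45.5 ± 3.86, and these did not overlap. Nfkb2 and Nfkb1 (21.8 ± 4.68 and 21.6 ± 1.46) overlapped, and the lowest Nfkb2 library reached the range of Rel. Overlap was also seen among Rel, Nfkbie, Nfkbib, Bcl3 and Relb, which lay between 11.8 and 13.3 CPM per kb in the mean. Tnfaip3 was lowest at 3.21 ± 0.53 CPM per kb. In IL4_IL13 the ranges of Nfkbia (39.5 ± 3.18) and Rela (37.6 ± 2.76) met, followed by Nfkb1 (25.3 ± 1.07), Rel (19.2 ± 1.94) and Nfkb2 (14.78 ± 2.60), the last 2 overlapping and Nfkb2 also reaching Nfkbib. Nfkbib (10.5 ± 1.15), Nfkbie (7.16 ± 2.06), Bcl3 (6.06 ± 0.72), Relb (5.70 ± 1.54) and Tnfaip3 (1.81 ± 0.38) stood below, with Nfkbie overlapping its neighbours on both sides.

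In IL4_IL13_TNFa the order changed. Nfkbia (222 ± 9.27 CPM per kb) was followed by Nfkbie (117.6 ± 3.06), which had been among the lower genes in the other groups. Next came Nfkb2 (69.4 ± 1.46), then Nfkb1 and Rela (58.5 ± 3.65 and 56.1 ± 2.34, overlapping), Relb (41.3 ± 1.69), Bcl3 (33.5 ± 1.37), Rel (26.8 ± 2.03), Tnfaip3 (23.3 ± 1.17) and Nfkbib (20.5 ± 1.26). Tnfaip3 overlapped both of its neighbours, Rel and Nfkbib. The place of Nfkb1 depends on the length used: its merged exons span 12.061 kb and its longest transcript 4149 bases, and by the latter it stood at 62.7 ± 4.25, 73.5 ± 3.11 and 170.2 ± 10.6 CPM per kb in the 3 groups. It was then above Rela in each group, overlapped Nfkbia in Control (55.6 to 67.7 against 62.5 to 74.98), stood first in IL4_IL13, above Nfkbia at 40.3, and stood second to Nfkbia in IL4_IL13_TNFa, above Nfkbie at 119.1.

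The make-up of the 5 subunits shifted with these levels, given here by merged exons. Nfkb1 gave 19.1% ± 1.51 of the summed CPM per kb of the 5 in Control, 24.8% ± 1.58 in IL4_IL13 and 23.2% ± 1.07 in IL4_IL13_TNFa. Rela gave 40.1% ± 2.00, 36.7% ± 1.32 and 22.25% ± 1.002. Relb gave 10.2% ± 1.80, 5.48% ± 1.14 and 16.4% ± 0.59, and Nfkb2 gave 18.9% ± 2.04, 14.3% ± 1.44 and 27.5% ± 0.66. Rel reached its highest share in IL4_IL13, 18.7% ± 1.35, against 11.7% ± 0.44 in Control and 10.6% ± 0.60 in IL4_IL13_TNFa. The sizes of the shares depend on the length used: by longest transcripts Nfkb1 had the largest share in each group (37.6%, 46.2% and 43.4%), Rela had 30.8%, 26.7% and 16.2%, and Rel had 7.94%, 12.01% and 6.82%. By either length the mean share of Rela was highest in Control and lowest in IL4_IL13_TNFa, and that of Rel was highest in IL4_IL13. By merged exons, the ratio of Relb to Rela was 0.257 ± 0.054, 0.150 ± 0.033 and 0.736 ± 0.011 in the same order, and that of Rel to Rela was 0.292 ± 0.012, 0.511 ± 0.047 and 0.478 ± 0.044.

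The 3 classical inhibitors moved further than the 5 subunits in the sum. Their summed CPM per kb was 95.2 ± 8.01 in Control, 57.2 ± 5.83 in IL4_IL13 and 359.6 ± 12.2 in IL4_IL13_TNFa, and that of the subunits was 114 ± 14.4, 102.5 ± 8.68 and 252 ± 6.41. The ratio of inhibitors to subunits spanned 0.801 to 0.925 in Control, 0.491 to 0.622 in IL4_IL13 and 1.35 to 1.495 in IL4_IL13_TNFa, with no overlap. By longest transcripts the ranges were lower, 0.562 to 0.623, 0.320 to 0.411 and 0.888 to 0.993, and again did not overlap. The ratio of Nfkbia to Nfkbib was 5.52 ± 0.14, 3.78 ± 0.26 and 10.8 ± 0.64. These shares and ratios describe RNA within each library and were not tested.

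**Figure D3:**
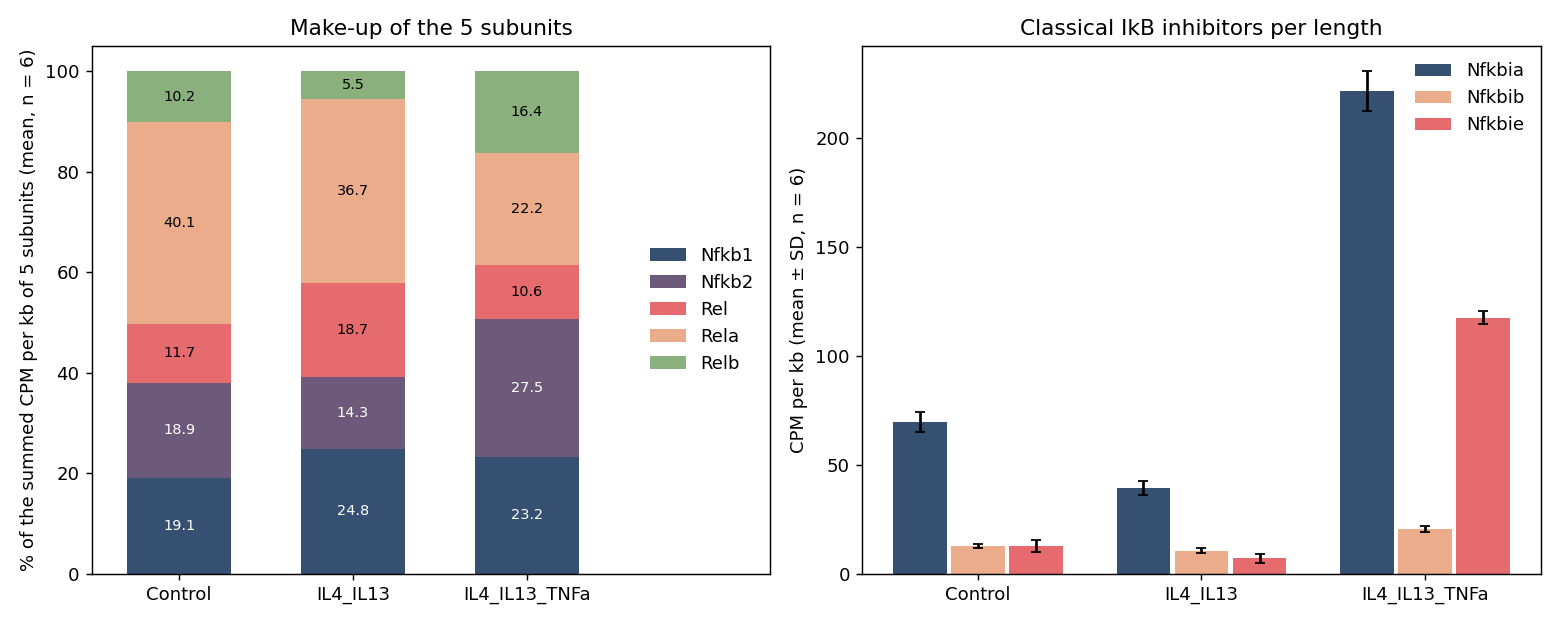
Left, mean share (y axis, %) of each subunit in the summed CPM per kb of the 5 in each group (x axis); right, mean CPM per kb (y axis, bars from 0, ± SD, n = 6) of the 3 IkB inhibitors. The share of Rela falls from 40.1% in Control to 22.25% in IL4_IL13_TNFa, and Nfkbie climbs from 7.16 to 117.6 CPM per kb when TNFa is added.

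The libraries of a group differed in these genes in a shared way. Control replicate 1 was the lowest control for 10 of 10 genes, at 23.7 CPM for Relb against 41.7 to 59.7 CPM in the other controls, and at 59.8 CPM for Nfkb2 against 96.2 to 120.4 CPM. Control replicate 5 was the highest for 9 of 10. In IL4_IL13, replicate 1 was the lowest for 8 of 10 and replicate 5 the highest for 6. How often each library was the lowest or highest over all genes was not counted, so these counts do not set the 10 genes apart. In IL4_IL13_TNFa the lowest values fell on 4 different libraries (replicates 1, 3, 5 and 6), and the spread was small, with a median coefficient of variation of 4.19% over the 10 genes against 13.7% in Control and 11.4% in IL4_IL13. Over the 8913 genes with a mean of at least 10 CPM the median was 6.16%, 10.8% and 8.37% in the same groups. The libraries numbered 1 also had the lowest stromal marker sums, 21.6, 63.2 and 66.1 CPM. The part of stromal cells in these differences was not tested.

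**Figure D4:**
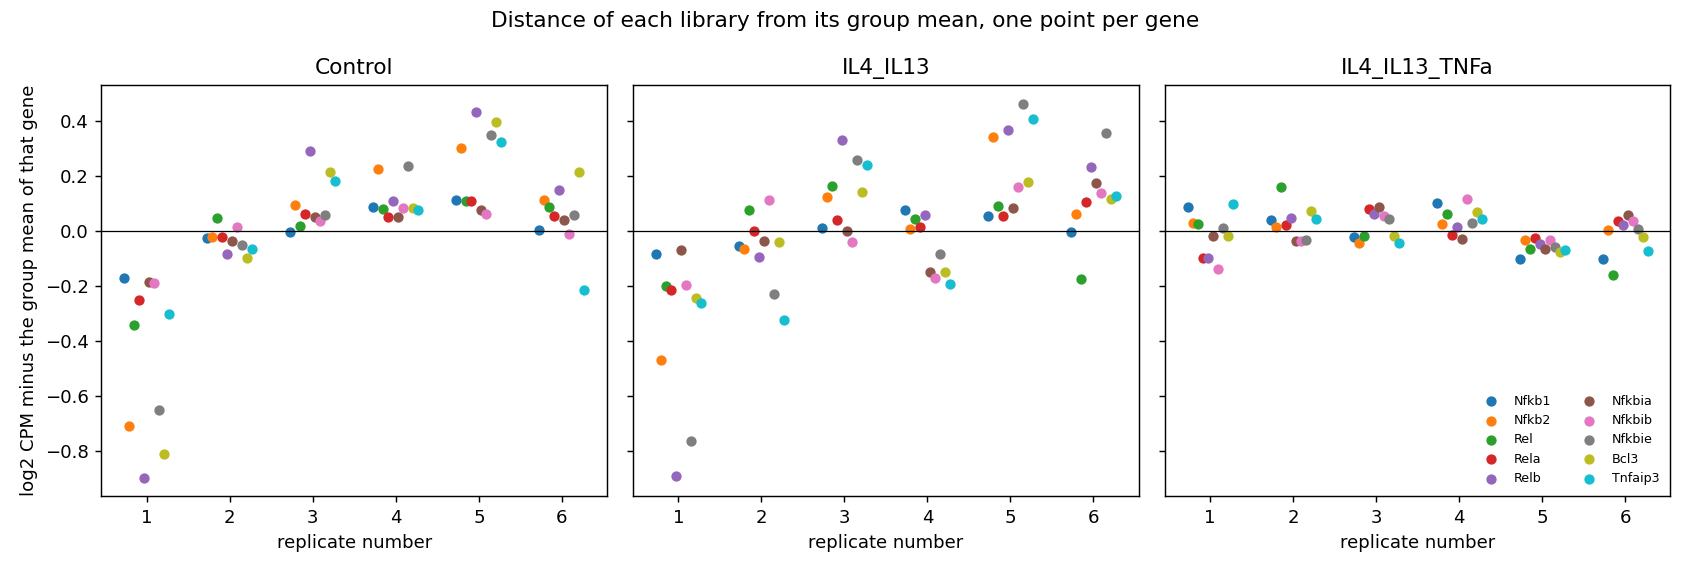
Log2 CPM of each gene (colour) minus its group mean (y axis) for each replicate number (x axis) in the 3 groups. In Control and IL4_IL13 replicate 1 is the lowest library for 10 and 8 of the 10 genes, while the IL4_IL13_TNFa libraries stay within a narrow band.

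Leaving out the 3 libraries numbered 1 kept all 10 calls in each comparison, in the same directions. With IL4_IL13 the differences were then -1.05 for Relb, -1.08 for Bcl3, -0.59 for Nfkb2 and 0.22 for Nfkb1. With added TNFa they were 3.92 for Nfkbie, 3.62 for Tnfaip3 and 2.74 for Relb. The replicate number as a block gave 4.09, 3.71 and 2.92 for the same genes.

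Of the 3 IKK genes, Ikbkg had the largest difference with IL4_IL13, while the catalytic subunit genes Chuk and Ikbkb differed by at most 1.2-fold in each comparison. These 2 genes were named outside the rule of size. Counts of the lists below stand beside the shares over all genes given above: 29.3% higher and 29.7% lower with IL4_IL13, 30.3% and 29.3% with added TNFa, and 36.4% and 37.3% against Control. All 18 listed genes of the IKK complex and its activators, most of them adaptors and upstream kinases, were tested. With IL4_IL13, 4 rose and 8 fell (median log2 difference -0.10): Ikbkg, which encodes the regulatory subunit NEMO, rose 1.94-fold from 113.7 ± 20.99 to 220.4 ± 9.73 CPM, Traf5, a TNF receptor adaptor gene, rose 3.37-fold, and Tab2, an adaptor gene of the TAK1 kinase, fell 1.57-fold. With added TNFa 8 rose and 1 fell (median 0.13), led by Traf2 at 1.92-fold, Traf5 at 1.76-fold and Myd88, the Toll-like receptor adaptor gene, at 1.40-fold. Against Control, 6 rose and 4 fell (median -0.03), and Traf5 was 5.94-fold, Ikbkg 2.16-fold and Traf2 1.89-fold higher.

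In the non-canonical arm 8 of 9 listed genes were tested (not Tnfrsf13c). With IL4_IL13, 2 rose and 4 fell (median -0.22), among them Map3k14, which encodes the kinase NIK of this arm, 1.93-fold lower, Birc3, a ubiquitin ligase gene of the TNF receptor complex, 1.99-fold lower, and Tnfrsf11a, the RANK receptor gene, 1.83-fold lower. With added TNFa 5 rose and 1 fell (median 0.35): Birc3 rose 7.26-fold, from 43.8 ± 10.7 to 317 ± 16.5 CPM, the receptor gene Cd40 rose 3.75-fold, and Traf3, whose product holds NIK low, rose 3.22-fold. Map3k14 lay at 29.4 ± 2.34 and 29.9 ± 1.64 CPM and did not pass (adjusted p = 0.74). Against Control 4 rose and 2 fell (median 0.60), with Cd40 5.88-fold and Birc3 3.64-fold higher and Tnfrsf11a 3.64-fold lower.

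Of 21 other IkB family and feedback genes, all tested, 7 rose and 9 fell with IL4_IL13 (median -0.06). The nuclear IkB gene Nfkbiz fell 11.7-fold, from 68.8 ± 21.2 to 5.87 ± 0.66 CPM (log2 difference -3.55 ± 0.20, adjusted p = 6.24e-11), more than any of the 10 genes fell, and Irak3, an inhibitor gene of Toll-like receptor signalling, fell 2.09-fold. Tnip3, which encodes a partner of the Tnfaip3 protein, rose 2.26-fold. With added TNFa 11 rose and 3 fell (median 0.24), led by the adaptor gene Traf1 at 18.5-fold (10.8 ± 3.58 to 198.8 ± 9.63 CPM), Nfkbiz at 2.62-fold and Tnip1 at 2.45-fold. Nfkbiz stayed 4.48-fold below Control in IL4_IL13_TNFa, at 15.4 ± 1.71 CPM, while Traf1 was 13.2-fold and Tnip3 3.70-fold above it. Against Control 12 rose and 4 fell (median 0.18).

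The 5 IKK-related kinase and adaptor genes were lower with IL4_IL13 in 4 cases and higher in 1 (median -0.46), with Tbkbp1 1.83-fold, Ikbke 1.46-fold and Tbk1 1.38-fold lower. With added TNFa 4 rose and none fell (median 0.53), and Ikbke, Tank and Tbk1 rose 2.70-, 2.65- and 1.45-fold. Against Control, 2 rose and 2 fell (median 0.07): Tank and Ikbke were 2.95- and 1.85-fold higher and Tbkbp1 2.07-fold lower.

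Of 30 listed target genes of NF-kB, 26 were tested (not Il6, Il12b, Cxcl1 and Csf2). With IL4_IL13, 14 fell and 4 rose (median -0.61), with Cxcl10 34.0-fold and Marcksl1 9.62-fold lower and Ccl22 13.4-fold higher. Of these, Cxcl10 went from 10.2 ± 3.70 to 0.287 ± 0.254 CPM and Ccl22 from 0.463 ± 0.237 to 6.17 ± 2.12 CPM. Both folds thus rest on a level under 1 CPM. With added TNFa 18 rose and 4 fell (median 1.55), and Cxcl2, a neutrophil chemokine gene, rose 50.4-fold, from 1.49 ± 1.74 to 79.0 ± 15.2 CPM. Ccl22, a T cell chemokine gene, rose 105-fold, and Nos2, at 0.0789 ± 0.09 CPM without TNFa, reached 29.5 ± 9.97 CPM. Against Control 14 rose and 8 fell (median 0.78). Vcam1 was 29.6-fold higher, from 1.04 ± 0.53 to 30.4 ± 2.86 CPM. Ccl22 and Nos2 went from 0.463 ± 0.237 and 0.263 ± 0.327 CPM to 649 ± 109 and 29.5 ± 9.97 CPM. With IL4_IL13, 7 targets rose and 14 fell without the libraries numbered 1, and 7 rose and 15 fell without Control replicate 1 alone. All 5 lists were chosen with earlier results known, and their counts describe these genes only.

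The genes nearest in pattern were found by the root mean square difference of log2 CPM over the 18 libraries, each gene centred on its own mean. The values were not scaled, so this distance depends also on how strongly a gene changed. The usual distance between genes was not computed. Relb lay nearest to Birc3, at 0.136, and Tnfaip3 to the adhesion gene Icam1, at 0.225. Bcl3 was nearest to Ahrr (0.139), Nfkb2 to Mllt6 (0.128), Nfkbia to 1810043G02Rik (0.104) and Nfkbie to the interferon-inducible GTPase gene Gbp3 (0.234). For Nfkb1, Rel, Rela and Nfkbib the nearest were Clcn7 (0.118), Med13l (0.094), Atp6v0b (0.071) and Mapkapk2 (0.119). For these 4 and Bcl3, none of the 3 nearest genes was a member. Among the members themselves Nfkb2 and Bcl3 were closest (0.196), with Rela and Nfkbib (0.200), Nfkbia and Bcl3 (0.203), Nfkb2 and Nfkbia (0.228) and Nfkbie and Tnfaip3 (0.254) next to it, while Rela and Nfkbie were farthest apart (1.55).

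Set beside the promoters, the 2 genes whose listed promoter held no kB consensus, Rela and Nfkbib, rose 1.49- and 1.96-fold with added TNFa. The 6 that held it ranged from 1.40-fold for Rel to 16.5-fold for Nfkbie, so the ranges overlapped. Nfkb1 and Relb, with no promoter matched, rose 2.31- and 7.25-fold.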

How the data were processed

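Poly(A) RNA was sequenced from stranded libraries, per the labels' protocols. The values deposited are unnormalized read counts for each gene, judged by their whole numbers. The submitters' processing notes list GRCm38, RSEM 1.3.0, featureCounts 1.5.1 and STAR (2.5.2, 2.5.2b) without saying what each did. Annotation release and strand setting: not given in the sources used here. Libraries were grouped by title.

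GENCODE M21 (GRCm38) gave symbols for 48434 of 48794 rows, positions and exon lengths. Genes were kept by filterByExpr (minimum count 10), scaled by TMM and fitted over all 18 libraries by edgeR 4.0.16 (robust quasi-likelihood) in R 4.3.3, with Benjamini-Hochberg adjustment over 13177 genes and a threshold of 0.05. Log2 CPM used a prior count of 2. The scripts were tested on simulated counts. Over 45 pairs of libraries within groups, chi-square divided by its degrees of freedom was at least 2.59, so none was a copy.

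Libraries that share a number deviated together, with correlations from 0.128 to 0.671 in 18 pairs, so by the data the numbers pair the libraries; no label says why.

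The members and lists were chosen with earlier results of these data known. List genes are named by size, up to 3 per list and comparison past the threshold with at least 5 CPM in the higher group; Map3k14 with added TNFa, Chuk, Ikbkb and the closing pairs of members were named outside this rule. Alternatives were DESeq2 1.42.0 and its size factors, library totals, limma 3.58.1 voom, no filter, a stricter filter (5 CPM in 6 libraries), the replicate block, only the libraries compared, libraries left out, and the longest transcript as length.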

Additional observations from a re-analysis of the deposited data

Results flagged for a closer look

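Each gene was checked in each group of 6 libraries for a highest or lowest library set far from the rest, by the gap to its neighbour over the whole range (limit 0.625). Of 30 such groups 3 were picked out, where chance gives about 1 in 20, and in each the library was numbered 1. Control replicate 1 lay at 77.83 CPM for Rel, with the other controls between 100.1 and 106.6 CPM, and at 24.0 CPM for Nfkbib, with the others between 27.18 and 29.03 CPM. IL4_IL13 replicate 1 lay at 99.33 CPM for Rela, with the others between 115.2 and 123.8 CPM.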

How the results depend on the processing

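Each of the 30 log2 differences of the 10 genes was recomputed under 27 alternatives. All 270 values kept their direction and call with IL4_IL13 and all 270 with added TNFa. Against Control 269 of 270 did, the exception being Rela with library totals (0.052, adjusted p = 0.448). With the replicate block (paired by number), 10 of 10 members were called in each comparison, and 8632, 8516 and 10185 genes in all; it changed no call of a member. The total of called genes stayed within 1.5 times of 7774, 7856 and 9722, but its split did not: with library totals, 2313 genes rose and 6089 fell with added TNFa, in place of 3999 and 3857. Against Control the members at 2-fold or more numbered 7 rather than 8 with library totals, with the stricter filter, and without Control replicate 1, IL4_IL13_TNFa replicate 2 or all libraries numbered 1. Library totals also moved 3 called differences by over 1.5 times: with added TNFa, Rel from 0.48 to 0.28 and Rela from 0.58 to 0.37, and against Control, Nfkbib from 0.70 to 0.45. Among the calls that were kept, Nfkbib with IL4_IL13 had the largest adjusted p (0.0425 without a filter, difference -0.21). The per-kb level of Nfkb1 in Control was 21.6 by merged exons and 62.7 by the longest transcript. The lowest count of a member in a library was 173.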
